A study of Mus musculus with 2 samples.

Results

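Synaptotagmins are proteins of synaptic vesicles, dense-core vesicles and other membranes that carry a pair of C2 domains, folds that in several members bind calcium and phospholipid. On vesicles, the calcium-binding members link calcium entry to membrane fusion by the SNARE proteins, and thereby set the timing of transmitter release in brain. Other members do not bind calcium through these domains and act in membrane traffic. The mRNAs of 10 synaptotagmin genes were followed here, Syt1, Syt2, Syt3, Syt4, Syt5, Syt7, Syt11, Syt12, Syt13 and Syt17. They were taken by gene symbol from 23329 genes in the files, with 15 transcripts among them.

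The tissue was whole brain of wild-type C57BL/6 mice, and the question, given by the series title, was which mRNAs are enriched at synapses. There were 2 libraries, 1 of RNA from a synaptosome-enriched fraction and 1 of RNA from total homogenate. Synaptosomes are nerve endings that seal off when brain is homogenised, often with postsynaptic membrane attached. Per the labels' protocols the fraction was the layer between 3% and 10% Percoll, taken after nuclei had been spun out. Both titles carry WT1 and CT10, but the labels state neither the age of the mice, nor the number of brains, nor whether both libraries came from the same brain.

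The synaptosome library held 13709528 estimated counts and the homogenate library 15210838. With 1 library a fraction there was no replicate check of any difference, no p-value is given, and the intervals cover counting error only. The marker genes of the labels' tissue were measured in both libraries, with 0 of them at 0 counts. Their summed levels are given in CPM (counts scaled to a common library total), while higher and lower are calls of at least 2-fold after TMM scaling, which sets the typical gene near no change. The 5 astrocyte markers were all higher in the synaptosome library, 4 of them also under library totals, and summed to 14492 CPM, against 4703 CPM in the homogenate. The 5 oligodendrocyte markers, 1 of them higher, summed to 17977 CPM in synaptosomes and 7980 CPM in homogenate, and the 5 microglial markers, 2 of them higher and 1 under library totals, to 273 CPM and 210 CPM. The 5 neuronal markers, which include Snap25, summed to 2666 CPM in synaptosomes and 5030 CPM in homogenate, and 3 of them were lower. Snap25, the largest of them in homogenate, weighed heavily on these sums, with 10472 counts in synaptosomes and 43688 in homogenate. Slc17a7, the largest in synaptosomes, went the other way, with 20764 and 16972 counts. Its ratio of 1.91 did not reach 2-fold and was the only 1 of the 5 above 1. The 5 endothelial markers, at 13.1 and 178 CPM, and 4 nuclear RNAs, at 1418 and 9741 CPM, were all lower in synaptosomes. The part of these shifts in the synaptotagmin ratios was not tested. In bulk RNA of a fraction, less material from a cell type and less of an RNA in that material cannot be told apart.

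Syt1, Syt11 and Syt5 supplied most synaptotagmin mRNA in both libraries. Levels between genes were compared as TPM (relative transcript abundance, corrected for transcript length), and the intervals beside them rescale the exact 95% Poisson interval of the count. Together the 3 genes made up 79.7% of the TPM of the 10 genes in synaptosomes and 74.1% in homogenate. The whole set summed to 2819 TPM in synaptosomes and 2364 TPM in homogenate.

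Syt1, the calcium sensor for fast release in forebrain, stood at 1032 TPM in synaptosomes (1020 to 1044) and 1020 TPM in homogenate (1008 to 1031). Its rank by TPM among all genes was 134 in synaptosomes and 98 in homogenate. Syt11, a vesicle traffic protein, had 701 TPM in synaptosomes (691 to 711) and 490 TPM in homogenate (482 to 498). Syt5, a vesicle synaptotagmin whose name has been exchanged with Syt9 in part of the literature, had 513 TPM in synaptosomes (499 to 528) and 242 TPM in homogenate (233 to 252). These intervals do not overlap, so the order Syt1, Syt11, Syt5 held beyond counting error in each library.

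Below them, Syt13 had 147 TPM in synaptosomes (142 to 152) and 175 TPM in homogenate (169 to 180). Syt7 had 144 TPM in synaptosomes (141 to 148) and 158 TPM in homogenate (154 to 162). In synaptosomes the intervals of Syt13 and Syt7 overlapped, whereas in homogenate Syt13 lay above. Syt4 had 126 TPM in synaptosomes (122 to 131) and 108 TPM in homogenate (103 to 112), and Syt3 had 59.2 TPM in synaptosomes (55.3 to 63.3) and 68.8 TPM in homogenate (64.7 to 73.1).

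The lowest places changed hands between the libraries. Syt2 had 38.0 TPM in synaptosomes (35.3 to 40.8) and 24.1 TPM in homogenate (22.1 to 26.3), and Syt12 had 36.5 TPM in synaptosomes (33.8 to 39.3) and 29.8 TPM in homogenate (27.5 to 32.3). Syt17 had 21.3 TPM in synaptosomes (18.4 to 24.5) and 49.9 TPM in homogenate (45.6 to 54.6). Syt17 was thus the scarcest of the 10 in synaptosomes, while Syt2 was the scarcest in homogenate. Syt2 and Syt12 overlapped in synaptosomes but not in homogenate. The span between the most and the least abundant member was 48.5-fold in synaptosomes and 42.2-fold in homogenate.

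**Figure D1:**
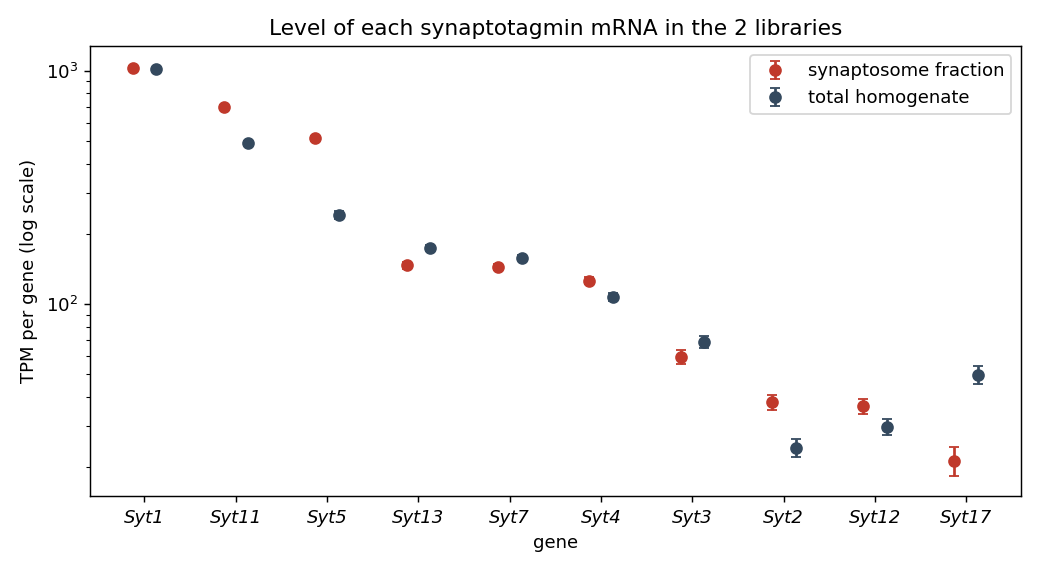
TPM per gene on a log scale for the 10 synaptotagmin genes in the synaptosome library (red, left of each pair) and the homogenate library (dark blue-grey, right). Points are single libraries and bars are 95% counting intervals. Syt5, at 513 TPM in synaptosomes and 242 TPM in homogenate, and Syt17, at 21.3 and 49.9 TPM, have the highest and the lowest ratio.

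Relative to the typical gene, 3 synaptotagmin mRNAs were higher in the synaptosome fraction, Syt5, Syt2 and Syt11, and 0 were lower. The calls required a ratio, synaptosome over homogenate, of at least 2-fold in either direction and an exact 95% interval that excluded no difference. Of all 14153 genes tested, 12.8% were higher and 9.1% lower by this rule. The other 7 members lay between, and 9 of 10 had log2 ratios above 0. The median log2 ratio of the 10 was 0.66, beside -0.01 over all genes tested. The ratios rest on TMM scaling. Scaling by library totals moves every log2 ratio by -0.49, leaves 1 member higher (Syt5) and puts 1 member lower (Syt17), with 4.49% of all genes higher and 25.6% lower.

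Among the vesicle sensors the ratios differed. Syt5 (chromosome 7, 4539765 to 4546567, minus strand, mm10) had 5059 counts in synaptosomes and 2564 in homogenate. It was 3.08-fold higher in synaptosomes (2.94 to 3.23), above 96.7% of all genes tested, and 2.19-fold higher under library totals (2.09 to 2.30). Syt5 was the member called higher under both scalings.

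Syt2 (chromosome 1, 134646681 to 134749417, plus strand), a fast calcium sensor of brainstem, cerebellar and fast-spiking interneuron synapses, had 744 counts in synaptosomes and 508 in homogenate. It was 2.29-fold higher in synaptosomes (2.04 to 2.56), with a ratio of 1.62 under library totals, which is below the 2-fold rule. Syt1 (chromosome 10, 108497650 to 109010975, minus strand) had 28555 counts in synaptosomes and 30315 in homogenate, a ratio of 1.47 (1.45 to 1.49) that became 1.05 under library totals. The ratio of Syt2 was 1.55 times that of Syt1 (95% counting interval by normal approximation, 1.39 to 1.74), and the ratio of Syt5 was 2.09 times that of Syt1 (1.99 to 2.20). Such quotients of 2 genes do not depend on the scaling. The 6 gene pairs computed in this way were chosen after their values were seen.

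Of the high-affinity calcium binders, neither passed the rule as a whole gene. Syt7 (chromosome 19, 10389090 to 10453181, plus strand), which acts in slow, asynchronous release and facilitation, had 5634 counts in synaptosomes and 6495 in homogenate. Its ratio was 1.35 (1.31 to 1.40), and 0.962 under library totals. Syt3 (chromosome 7, 44384126 to 44400030, plus strand), which is known for postsynaptic receptor internalisation, had 842 counts in synaptosomes and 1048 in homogenate. Its ratio was 1.25 (1.14 to 1.37), and 0.891 under library totals. The sign of both log2 ratios therefore depended on the scaling, and in both genes the transcripts differed in ratio, as given further on.

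Syt4 and Syt11 form a pair whose first C2 domain carries a substitution at a calcium-binding residue. Syt11 (chromosome 3, 88744701 to 88772599, minus strand) had 18673 counts in synaptosomes and 14021 in homogenate. It was 2.08-fold higher in synaptosomes (2.03 to 2.13), just past the rule, with a ratio of 1.48 under library totals. Syt4 (chromosome 18, 31437808 to 31447415, minus strand), found on dense-core vesicles, had 2861 counts in synaptosomes and 2619 in homogenate, a ratio of 1.71 (1.62 to 1.80), or 1.21 under library totals. The ratio of Syt11 was 1.22 times that of Syt4 (1.15 to 1.29).

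Of the remaining members, Syt12 and Syt13 lay between and Syt17 had the only log2 ratio below 0. Syt12 (chromosome 19, 4445908 to 4477143, minus strand), a vesicle phosphoprotein, had 691 counts in synaptosomes and 607 in homogenate, a ratio of 1.78 (1.59 to 1.99), or 1.26 under library totals. Syt13 (chromosome 2, 92915101 to 92956051, plus strand), which lacks calcium-binding residues in its C2 domains, had 3200 counts in synaptosomes and 4087 in homogenate, a ratio of 1.22 (1.17 to 1.28), or 0.869 under library totals. The ratio of Syt12 was 1.45 times that of Syt13 (1.29 to 1.64).

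Syt17 (chromosome 7, 118381856 to 118443552, minus strand) lacks the transmembrane segment of the other members. It had 193 counts in synaptosomes and 486 in homogenate, a ratio 1.61-fold below 1 (1.36 to 1.92) that does not reach 2-fold. Under library totals it was 2.27-fold lower (1.92 to 2.70) and passed the rule. The ratio of Syt5 was 4.97 times that of Syt17 (4.18 to 5.91), the widest gap in the family. The transcript model of Syt17 in the files stops at the stop codon, with 0 bases of 3' UTR, while 3 coding transcripts of GENCODE release M21 run up to 1139 genomic bases further, so reads from that stretch were outside the counted model.

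**Figure D2:**
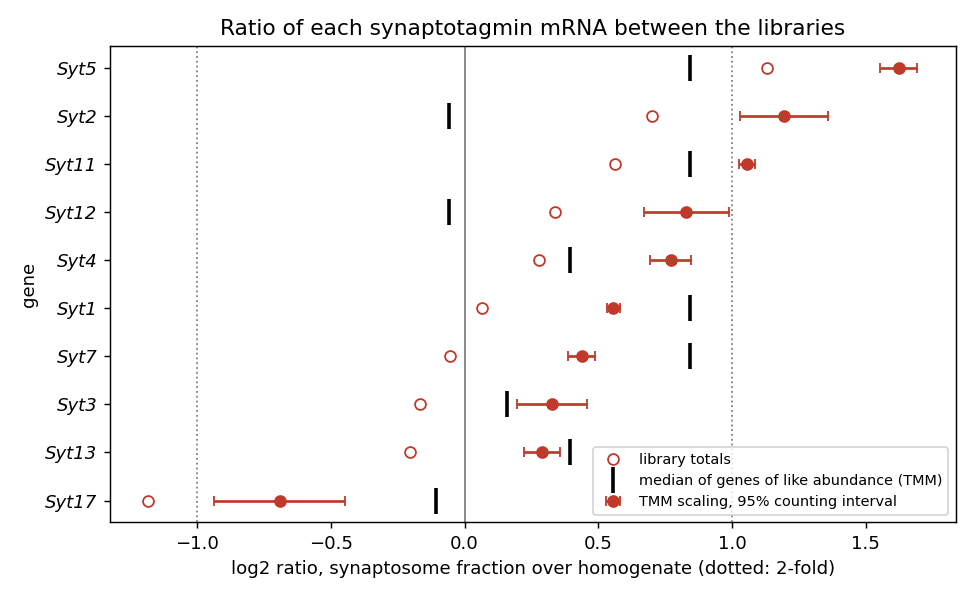
Log2 ratio, synaptosome fraction over homogenate, for each synaptotagmin gene. Filled points with bars are TMM-scaled ratios with 95% counting intervals, open points are ratios under library totals, and black ticks are the median of genes of like abundance. Syt5, Syt2 and Syt11 lie past the dotted 2-fold line under TMM, and Syt5 also under library totals.

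Each member was also set beside genes of like abundance, in 20 bins of mean CPM with 707 or 708 genes a bin. Over the bins that hold members, the median log2 ratio was higher where genes were more abundant, at -0.11 in the bin of Syt17 and 0.84 in the bin of Syt1. Of the 10 members, 6 lay above the median of their bin. Syt2 exceeded 94.2% of its bin, whose median log2 ratio was -0.06, and Syt12 exceeded 86.9% of the same bin. Syt5 exceeded 82.9% of the bin it shares with Syt1. In that same bin Syt11 exceeded 60.0% of genes, Syt1 40.7% and Syt7 38.0%. Syt1 and Syt7 thus had log2 ratios above 0 that were below the median of this bin. It is the bin of highest abundance and is wide, with a mean CPM of 269 for Syt5, 419 for Syt7 and 2038 for Syt1. Whether Syt1 and Syt7 also lie below genes of closer abundance was not tested. Syt17 exceeded 16.9% of its bin, and Syt13 46.9%, Syt3 58.7% and Syt4 65.8% of theirs.

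**Figure D3:**
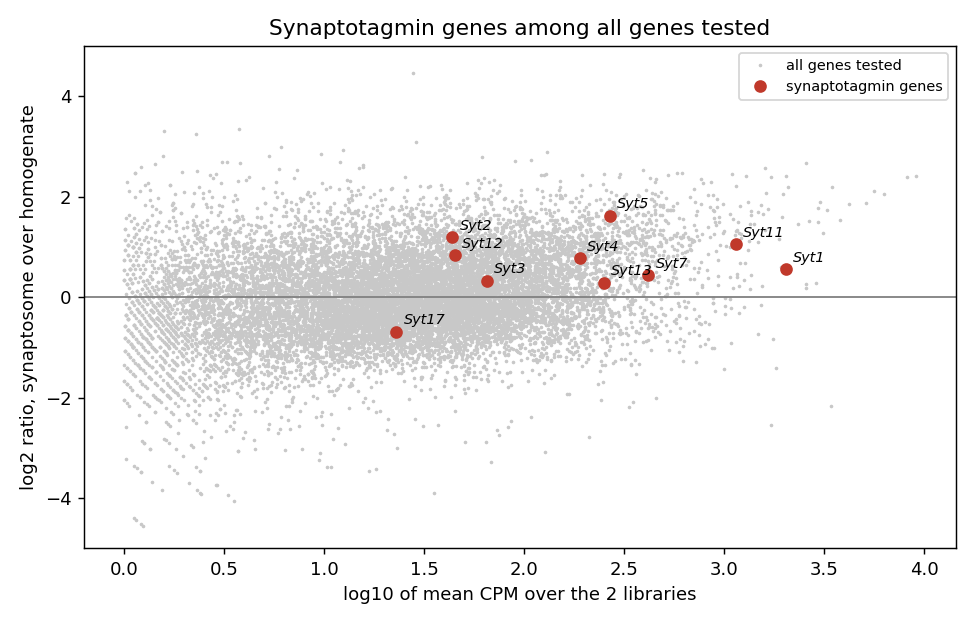
Log2 ratio, synaptosome over homogenate (TMM), against the log10 of mean CPM for all genes tested (grey) and the 10 synaptotagmin genes (red, named). The axis ends at 5 on either side, so 4 genes lie outside it, and 8 genes with 0 counts in a library are not drawn. Syt2 and Syt12 lie above most grey points of their abundance, and Syt17 is the red point below 0.

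Within the family, Syt1 held a smaller share in synaptosomes than in homogenate, and Syt5 and Syt11 a larger one. Syt1 held 36.6% of the summed TPM in synaptosomes and 43.1% in homogenate. Syt11 held 24.9% in synaptosomes and 20.7% in homogenate, and Syt5 held 18.2% and 10.2%. Syt13 held 5.21% in synaptosomes and 7.39% in homogenate, Syt7 5.12% and 6.68%, and Syt17 0.755% and 2.11%. The remaining members, Syt2, Syt3, Syt4 and Syt12, each held between 1.02% and 4.55% in either library. All counts of the 10 genes summed to 66452 in synaptosomes and 62750 in homogenate, a TMM-scaled ratio of 1.65 (1.64 to 1.67), or 1.17 under library totals.

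The highest ratio, that of Syt5, and the lowest, that of Syt17, belonged to the shortest models, of 1750 and 1617 bases. Syt7 has the longest, at up to 6834 bases, of which 4737 are 3' UTR. Syt11 and Syt1 carry 2999 and 2890 bases of 3' UTR, and Syt5 and Syt3 carry 333 and 497 bases. Coding length, with the stop codon, ran from 1161 bases in Syt5 to 1764 in Syt3.

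At the level of transcripts, the largest shift among Syt1, Syt3 and Syt7, the 3 members with several transcripts, was in Syt7. The files list 3 Syt7 transcripts, which have untranslated parts of equal length and differ in coding exons of the linker between the transmembrane segment and the C2 domains. NM_018801 joins the flanking exons directly, NM_173067 inserts 1 exon of 132 bases (chromosome 19, 10421757 to 10421888), and NM_173068 inserts 2 exons of 369 and 123 bases (10426299 to 10426667 and 10430338 to 10430460). Each insert keeps the reading frame and adds 44 or 164 codons. The joins are printed because they are what tells the transcripts apart, with the inserted bases in capitals and 21 shared bases beside each join in lower case. They were read from GENCODE M21 transcripts on the same build, 5′ to 3′ on the plus strand. Of the 369-base exon the first 99 bases are shown.
Syt7 without insert: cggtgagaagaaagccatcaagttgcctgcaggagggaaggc
Syt7 short insert: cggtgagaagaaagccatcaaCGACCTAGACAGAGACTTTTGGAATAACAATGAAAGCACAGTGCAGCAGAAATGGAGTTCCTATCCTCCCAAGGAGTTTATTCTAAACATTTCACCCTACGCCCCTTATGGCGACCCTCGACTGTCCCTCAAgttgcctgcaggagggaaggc
Syt7 long insert, first exon: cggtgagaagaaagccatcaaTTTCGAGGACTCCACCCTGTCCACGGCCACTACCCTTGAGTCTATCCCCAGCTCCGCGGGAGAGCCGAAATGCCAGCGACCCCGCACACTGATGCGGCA
Syt7 long insert, second exon: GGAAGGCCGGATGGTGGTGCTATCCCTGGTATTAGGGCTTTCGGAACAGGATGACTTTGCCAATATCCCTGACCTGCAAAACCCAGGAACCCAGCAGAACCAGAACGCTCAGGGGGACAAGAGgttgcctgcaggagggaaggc

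The Syt7 transcript without an insert had 516 estimated counts in synaptosomes and 3075 in homogenate. It was 3.82-fold lower in synaptosomes (3.48 to 4.20). The transcript with the short insert had 2121 counts in synaptosomes and 1396 in homogenate and was 2.37-fold higher in synaptosomes (2.22 to 2.54). The transcript with the long insert had 2997 counts in synaptosomes and 2024 in homogenate and was 2.31-fold higher (2.18 to 2.45). By the same 2-fold rule on 17612 transcripts, 16.2% were higher and 13.5% lower. Under library totals the transcript without insert stayed lower, at a log2 ratio of -2.43, while those with inserts no longer passed, at 0.75 and 0.72.

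As a share of Syt7 counts, which does not depend on scaling, the transcript without insert made up 9.16% in synaptosomes (exact 95% binomial interval 8.42 to 9.94) and 47.3% in homogenate (46.1 to 48.6). The transcripts with inserts together outnumbered it 9.92 to 1 in synaptosomes and 1.11 to 1 in homogenate. Between themselves the inserted transcripts kept nearly the same proportion, 1.41 counts of the long insert per count of the short insert in synaptosomes and 1.45 in homogenate. The change of 38.2 percentage points exceeded the largest change of 92.8% of the 2575 genes with several transcripts and at least 100 counts in each library. A change of at least 20 points, a limit chosen after values were seen, was found in 24.0% of those genes.

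These counts divide reads that mostly fall on shared sequence. The inserts make up 2.04% and 7.20% of the length of their transcripts, and the transcript without an insert is set apart by its join alone. The deposited posterior estimates, a second set of counts for the same transcripts, gave a change of 36.4 points. They describe the same libraries and the same 3 transcripts, so they are no independent check of how reads were assigned. GENCODE M21 lists 9 coding Syt7 transcripts, of which 2 carry both inserts and 5 carry a further exon of 228 bases at this place. How reads of such transcripts were assigned to the 3 in the files was not tested. A noncoding gene on the opposite strand, Gm26859, overlaps 384 bases of the shared exons and 0 bases of the inserts. Whether the counting used strand is not stated.

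**Figure D4:**
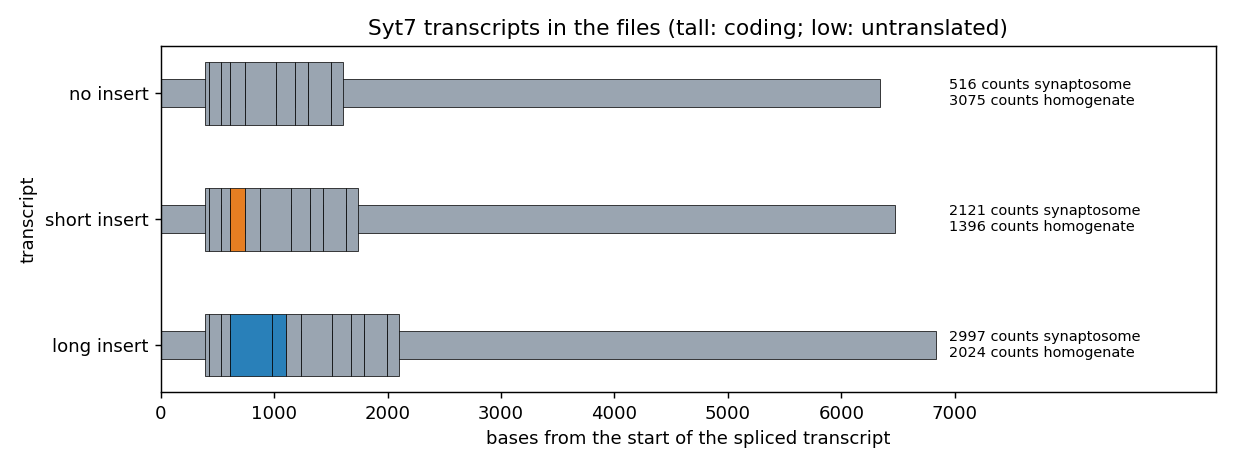
The 3 Syt7 transcripts in the files, drawn to scale in bases from the start of the spliced transcript, with coding parts tall, untranslated parts low, the short insert in orange and the long insert in blue. Estimated counts stand at the right. The transcript without insert had 516 counts in synaptosomes and 3075 in homogenate, the reverse of the other transcripts.

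Syt3 showed a smaller change of the same kind, and there the coding sequence did not differ. Its 2 transcripts differ by 27 bases ahead of the start codon (chromosome 7, 44385929 to 44385955), in the 5' UTR. The transcript with them, NM_016663, had 388 counts in synaptosomes and 237 in homogenate, and was 2.56-fold higher in synaptosomes (2.17 to 3.02). Under library totals its log2 ratio was 0.86 and it did not pass. The transcript lacking them, NM_001114116, had 454 counts in synaptosomes and 811 in homogenate, a ratio of 0.874 (0.778 to 0.982). The longer 5' UTR made up 46.1% of Syt3 counts in synaptosomes (42.7 to 49.5) and 22.6% in homogenate (20.1 to 25.3). This change of 23.5 points exceeded that of 81.2% of genes with several transcripts. It was 21.7 points by the posterior estimates, which are again no independent check. Only reads over the 27 bases, of 2498 in the longer transcript, or over the place where they are missing tell the transcripts apart. The intervals treat every Syt3 count as if it did, so they are too narrow.

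The mix of Syt1 changed less than that of Syt7 or Syt3, by at most 6.21 points. Its transcripts differ by 9 coding bases in the linker ahead of the C2 domains (chromosome 10, 108636665 to 108636673, minus strand), and by an exon of 80 bases in the 5' UTR (108993838 to 108993917). The 9 bases, from GENCODE M21 transcripts 5′ to 3′, in capitals with 21 bases on either side, are shown because they set the protein forms apart by 3 codons.
Syt1 with 9 bases: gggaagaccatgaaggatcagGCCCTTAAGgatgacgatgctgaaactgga
Syt1 without 9 bases: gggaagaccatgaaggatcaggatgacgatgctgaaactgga

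Transcripts of Syt1 with the 9 bases made up 56.7% of its counts in synaptosomes and 60.6% in homogenate. NM_009306, with the 9 bases, had 14635 counts in synaptosomes and 17421 in homogenate, and NM_001252342, without them, had 12376 and 11941. Neither passed the 2-fold rule, with ratios of 1.31 (1.28 to 1.34) and 1.62 (1.58 to 1.66). The scarce NM_001252341, with the extra 5' exon, had 1543 counts in synaptosomes and 953 in homogenate. It was 2.53-fold higher in synaptosomes (2.33 to 2.74), but did not pass under library totals, at a log2 ratio of 0.85. Its share was 5.40% in synaptosomes (5.14 to 5.67) and 3.14% in homogenate (2.95 to 3.35). These intervals do not overlap, but they too leave out the error of dividing reads on shared sequence. The largest change of share in Syt1, 6.21 points, exceeded that of 40.3% of genes with several transcripts.

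In all, 7 of the 15 synaptotagmin transcripts were higher and 1 was lower, beside 16.2% higher and 13.5% lower of all transcripts tested, and 15 passed the filter. The 7 were the transcripts of Syt2, Syt5 and Syt11, both inserted transcripts of Syt7, the longer 5' UTR of Syt3 and the extra 5' exon of Syt1. Under library totals 1 was higher and 2 were lower, beside 7.83% and 28.0% of all transcripts tested. The other 7 genes have 1 transcript each in the files, where the annotation lists up to 6. Exons of Syt12 and Syt4 overlap noncoding genes of the opposite strand by 950 and 575 bases, so their counts could include reads from those genes if strand was not used.

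**Figure D5:**
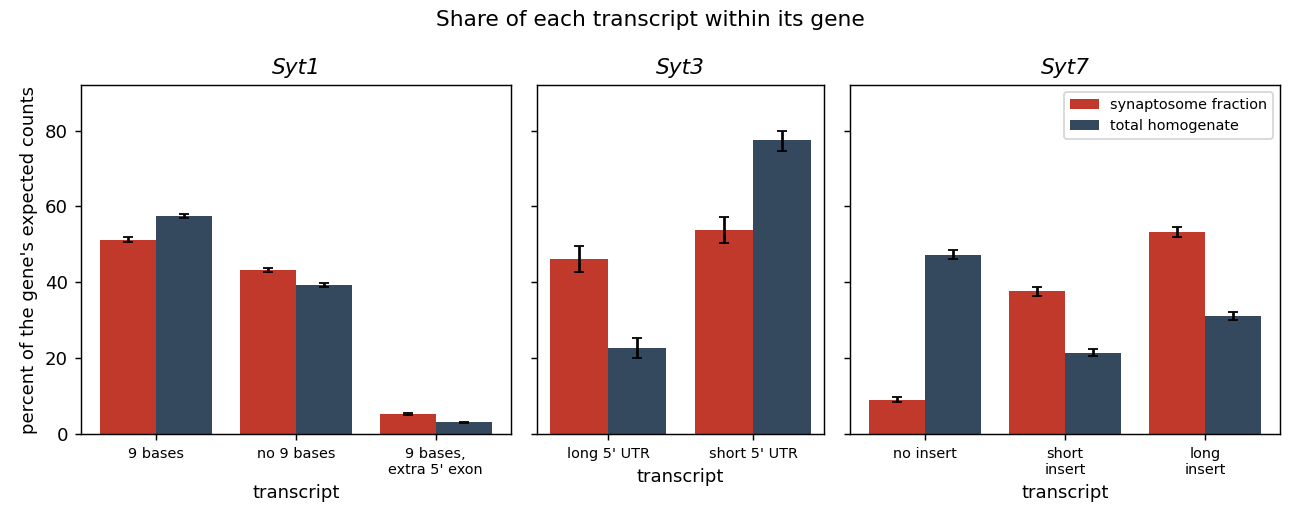
Percent of each gene's estimated counts assigned to each transcript, in the synaptosome library (red, left) and the homogenate library (dark blue-grey, right), with exact 95% binomial intervals. The intervals leave out the error of dividing reads on shared sequence. In Syt7 the transcript without insert is 9.16% in synaptosomes and 47.3% in homogenate, in Syt3 the long 5' UTR is 46.1% and 22.6%, and the bars of Syt1 differ by 6.21 points or less.

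Of 7 synaptotagmins outside the 10 members, 6 were tested and 0 passed the rule, beside 12.8% higher and 9.1% lower of all genes tested. With 6 genes, 0 calls do not set them apart from those shares. Syt16 had 1023 counts in synaptosomes and 1239 in homogenate, a ratio of 1.29 (1.19 to 1.40). Syt6 had 397 counts in synaptosomes and 762 in homogenate, a ratio 1.23-fold below 1 (1.09 to 1.39). Syt9, a vesicle synaptotagmin related to the fast sensors, had 245 counts in synaptosomes and 517 in homogenate, a ratio 1.35-fold below 1 (1.16 to 1.58). Syt14, with 32 counts in synaptosomes and 28 in homogenate, had the highest ratio at 1.78 (1.04 to 3.08), and Syt15, with 12 and 27 counts, the lowest, 1.44-fold below 1 with an interval that includes no difference. The median log2 ratio of the 6 was 0.03. Under library totals it was -0.46 and 0 of the 6 passed, beside 4.49% higher and 25.6% lower of all genes. Syt8 had 0 counts in both libraries.

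Over all 24 relatives with C2 domains, which add synaptotagmin-like, extended synaptotagmin, Doc2, rabphilin, ferlin and Mctp genes to 7 further synaptotagmins, 21 were tested. Of these, 2 (9.52%) were higher and 2 (9.52%) lower, close to the 12.8% and 9.1% of all genes tested, with a median log2 ratio of -0.16. Under library totals 1 was higher and 3 were lower, beside 4.49% and 25.6% of all genes, and the median was -0.65. Sytl4, an effector of Rab27 on secretory granules, had 86 counts in synaptosomes and 21 in homogenate, and was 6.39-fold higher in synaptosomes (3.93 to 10.9). Sytl5, with 76 and 43 counts, was 2.76-fold higher (1.87 to 4.11), but did not pass under library totals, at a log2 ratio of 0.97. Mctp2, with 12 counts in synaptosomes and 63 in homogenate, was 3.36-fold lower (1.80 to 6.85), and Otof, the hair-cell ferlin, with 190 and 615 counts, was 2.07-fold lower (1.76 to 2.45). The relative with the most counts, the Rab3 effector Rph3a, had 8811 counts in synaptosomes and 8885 in homogenate, a ratio of 1.55. Sytl2, with 776 and 1985 counts, had a ratio 1.64-fold below 1 (1.51 to 1.78), short of the rule, and was called lower under library totals, at a log2 ratio of -1.21.

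The mRNAs of proteins that work with synaptotagmins in vesicle fusion lay on both sides. Of 22 such genes tested, 8 (36.4%) were higher and 1 (4.55%) lower, beside 12.8% and 9.1% of all genes tested, with a median log2 ratio of 0.12. Under library totals 2 were higher and 7 lower, beside 4.49% and 25.6% of all genes, and the median was -0.37. Unc13c, a vesicle priming factor, had 2405 counts in synaptosomes and 1028 in homogenate, the highest ratio at 3.65 (3.39 to 3.93). Syp, the vesicle protein synaptophysin, had 42492 counts in synaptosomes and 24225 in homogenate and was 2.74-fold higher (2.70 to 2.78), but did not pass under library totals, at a log2 ratio of 0.96. Cplx2, a complexin that binds the SNARE complex, had 18557 counts in synaptosomes and 18161 in homogenate, a ratio of 1.60 (1.56 to 1.63). Snap25, the SNARE protein that Syt1 contacts, had 10472 counts in synaptosomes and 43688 in homogenate and was 2.67-fold lower (2.62 to 2.73). The ratio of Syt1, 1.47, lay between those of its SNARE partner Snap25 and of the vesicle protein Syp. So did the ratios of most of these genes, as Snap25 was the lowest of the 22 and Syp among the highest.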

How the data were processed

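Both libraries came from a kit that keeps strand, and reads were 100 bases long, per the labels' protocols. TopHat 1.3.3, RSEM 1.2.5, FastQC and edgeR 3.0.6 are named, with mm10, in the submitters' processing notes, without settings. The authors deposited expected counts per transcript, part of them fractional and not scaled to depth, along with posterior estimates of them. TPM and FPKM were computed by the authors and deposited in the same files, and FPKM was not used. The deposited gene signal was the summed count times 1.2527 in synaptosomes and 0.7983 in homogenate, within 0.5% for over 99% of genes with 100 or more counts.

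Here expected counts were summed per gene, rounded and scaled by TMM (edgeR 4.0.16, R 4.3.3, factors 0.843 for synaptosomes and 1.1863 for homogenate), and 14153 genes averaging 1 CPM or more were kept. Intervals of ratios are exact (Clopper-Pearson, 95%) given the summed count. They leave out the error of assigning reads to transcripts, and PCR copies are not independent molecules. No tool's p-value is used, as each fraction had 1 library. Alternatives were library totals, DESeq2 1.42.0 size factors, TPM, the deposited signal, other filters and other folds. Python 3.11.15, numpy 2.4.6, scipy 1.17.1 and pandas 2.3.3 were used, and the calculations were tested on simulated counts. Named genes were all 10 members and, of the lists of release partners and relatives, the 3 with the highest mean CPM, which is not corrected for length, and those with the highest and lowest ratio, and any other gene was picked with its values in view. The members and lists were chosen with earlier results of these data known. Coordinates are on mm10, as the files give them. Coding and untranslated parts come from GENCODE M21, in which all 15 transcripts had a match.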

Additional observations from a re-analysis of the deposited data

How the results depend on the processing

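Most calls depended on the scaling. Under library totals 1 synaptotagmin gene was higher and 1 lower, 2 release partners were higher and 7 lower, 1 relative was higher and 3 lower, 1 synaptotagmin transcript was higher and 2 lower, and the median log2 ratio of the members was 0.17. TPM with a pseudocount of 0.1 gave 1 higher and 1 lower member, 2 and 7 release partners, 1 and 5 relatives and a median of 0.12. With a pseudocount of 1 the counts were 1 and 1, 2 and 7, and 1 relative higher and 3 lower, with a median of 0.12. DESeq2 size factors gave a median of 0.69 and the same number of calls in every list, and the deposited signal, no filter and unrounded counts also gave the same numbers. At a mean of at least 10 CPM, 0 relatives were higher and 1 lower. With a fold of 1.5, 5 members were higher and 1 lower, 9 release partners were higher and 6 lower, and 4 relatives were higher and 3 lower. With a fold of 3, 1 member, 2 release partners and 1 relative were higher, and 0 release partners and 1 relative lower. The shares of all genes called at these folds, at 10 CPM or under TPM are not given here. The counts under those settings therefore show only how far the calls depend on the rule. The posterior estimates, an alternative chosen after seeing the data, gave -36.4 points for the Syt7 transcript without insert, against -38.2. Shares of the family were also taken by counts in place of TPM, which leaves length uncorrected. Both kinds of share come from the same reads, so counting error does not measure the gap between them. For Syt1 the change was -5.34 points, against -6.52 by TPM, with shares by counts of 43.0% in synaptosomes and 48.3% in homogenate. No called ratio of a member changed sign under any of these settings. Syt3, Syt7 and Syt13, which were not called, had log2 ratios above 0 under TMM and below 0 under library totals and TPM. No paired analysis was possible because each group has 1 library, and for the same reason no replicate could be left out.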

Other observations

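Among the release partners and relatives, 10 genes had several transcripts and at least 100 counts in each library, and 2 of them changed their mix by at least 20 percentage points, a limit that 24.0% of all such genes reached. Sytl2, a synaptotagmin-like Rab27 effector, was 56.5% NM_001040087 in synaptosomes (52.9 to 60.0) and 80.1% in homogenate (78.3 to 81.8), with 438 counts in synaptosomes and 1590 in homogenate. Cacna1a, the pore subunit of the P/Q-type calcium channel that triggers release, was 88.2% NM_001252060 in synaptosomes (87.1 to 89.2) and 55.2% in homogenate (53.2 to 57.1), with 3458 and 1393 counts. The division of reads between transcripts of a gene is an estimate whose error these intervals leave out.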
